A study of Mus musculus with 6 samples.

Results

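The 7 genes that encode subunits of the NMDA receptor (Grin1, Grin2a, Grin2b, Grin2c, Grin2d, Grin3a and Grin3b) were chosen by gene name from a table of 55367 genes, and all 7 were found and had enough counts to be tested. RNA came from cortical neurons of C57BL/6J mouse pups at postnatal day 1 (P1), dissociated with papain and kept for 2 days in vitro. There were 3 libraries from wild-type (WT) pups and 3 from Fmr1-KO pups, which lack the RNA-binding protein FMRP, and Fmr1-KO was compared with WT throughout. Cells positive for the astrocyte surface antigen ACSA2 and myelin had been depleted before plating. The libraries held between 30348556 and 35126207 counts. No label named a litter, culture or preparation batch, so P values measure the spread between these libraries, which may be partly technical. The targeted gene Fmr1 had 4113, 3710 and 3656 counts in WT and 1761, 1879 and 1972 counts in Fmr1-KO, so its transcript was reduced to 50.6% of WT and was still detected (adjusted P 2.25e-13 by edgeR).

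NMDA receptors are glutamate-gated cation channels that let calcium into neurons and need glycine or D-serine as co-agonist. Each receptor combines GluN1, the obligatory subunit encoded by Grin1, with GluN2 subunits (Grin2a to Grin2d) that bind glutamate and set the kinetics of the channel, or with GluN3 subunits (Grin3a and Grin3b) that bind glycine and lower calcium entry. In the forebrain, GluN2B, GluN2D and GluN3A are the juvenile subunits, abundant around birth, and GluN2A replaces much of GluN2B as synapses mature. GluN2C, best known from cerebellar granule cells, and GluN3B, best known from motor neurons, also appear late and are counted here as mature.

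In Fmr1-KO, 5 of the 7 genes were lower and 1 was higher by edgeR's quasi-likelihood test with a threshold of 0.05 on the adjusted P. Grin1, all 3 juvenile genes (Grin2b, Grin2d and Grin3a) and the mature gene Grin2a fell, Grin2c rose, and Grin3b did not pass the test. Among all 16976 genes tested, 42.6% were called, 21.9% as lower and 20.7% as higher, so calls were frequent in this comparison. The median log2 fold-change of the 7 genes was -0.74, and that of all tested genes was 0.01. For all 7 genes the 3 Fmr1-KO libraries lay entirely on one side of the 3 WT libraries, which was also the case for 51.7% of all tested genes. Grin3b, at 8 to 15 counts per library, entered the test mainly through Fmr1-KO, so its separation carries no weight.

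The promoters of Grin1 and Grin2c are shown because these genes, the obligatory subunit gene and the only member that rose, moved in opposite directions. Each sequence is the 250 bases before the annotated start in RefSeq on GRCm38.p6, read 5′ to 3′ on the strand of the gene, and capitals mark the GC box GGGCGG, the element bound by factors of the SP family. The Grin1 window is chr2:25319188-25319437 and the Grin2c window is chr11:115267244-115267493, both on the minus strand.
Grin1: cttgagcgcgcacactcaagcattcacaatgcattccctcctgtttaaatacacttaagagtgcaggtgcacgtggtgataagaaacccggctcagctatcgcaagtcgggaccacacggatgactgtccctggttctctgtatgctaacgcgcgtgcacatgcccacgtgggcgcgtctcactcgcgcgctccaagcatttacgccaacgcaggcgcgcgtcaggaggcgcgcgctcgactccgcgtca
Grin2c: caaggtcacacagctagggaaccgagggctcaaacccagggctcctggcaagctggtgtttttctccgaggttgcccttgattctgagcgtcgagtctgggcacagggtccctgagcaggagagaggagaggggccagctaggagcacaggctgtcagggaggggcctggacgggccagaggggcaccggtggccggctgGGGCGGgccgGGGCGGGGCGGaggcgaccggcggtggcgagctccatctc
Searched on both strands, the Grin2c window held 3 copies of GGGCGG, 2 of which overlap by 1 base, and the Grin1 window held 0. Of all 32851 promoter windows of this length, 32.7% held at least 1 copy. The Grin1 window held 27 CpG dinucleotides and the Grin2c window 15, against a median of 6 over all windows. The windows of Grin2d and Grin3b, the other members in the table, held 0 copies of the motif. The Grin2d window (chr7:45866682-45866931, minus strand) lies inside the GENCODE gene, which reaches 45878378, so it precedes an internal start. No window was available for Grin2a, Grin2b and Grin3a, and whether the motif bears on any of the changes was not tested. Exact matches to 1 motif in 250 bases before an annotated start cannot show that a gene lacks sites for SP factors.

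Grin1 also belonged to the panel that the study assayed by RT-qPCR, and its mRNA primers are shown because they read a narrower set of transcripts than the counts do.
Grin1 S: agagcccgaccctaaaaagaa
Grin1 AS: ccctcctccctctcaatagc
Placed on the transcripts of GENCODE M21, the S primer lies at chr2:25294508-25294528 and the AS primer at chr2:25292405-25292424 (GRCm38), both in coding exon sequence of this minus-strand gene. The S primer matched 4 of the 8 protein-coding Grin1 transcripts and the AS primer matched 4, and 2 transcripts held both, with a product of 171 bp. The Grin1 counts sum the reads of all its exons, in 14 annotated transcripts, and do not separate these forms.

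Grin1 lies on chromosome 2 from 25291181 to 25319187 (GRCm38) and was the only one of the 7 genes that the study listed among NMD targets, transcripts degraded by nonsense-mediated mRNA decay, a list drawn up in Neuro-2a neuroblastoma cells. It had 3053, 3053 and 3058 counts in WT replicates 1, 2 and 3, and 1523, 1444 and 1730 counts in the Fmr1-KO replicates. Expressed as CPM, counts per 1000000 with library sizes scaled by the trimmed mean of M-values (TMM), Grin1 stood at 90.6 ± 2.42 in WT and 47.9 ± 1.58 in Fmr1-KO (SD, n = 3 libraries each). No Fmr1-KO library reached the lowest WT library, and the log2 fold-change of -0.92 (SE 0.04) passed the threshold (adjusted P 1.17e-13 by edgeR). Only 3.50% of all tested genes had a larger absolute log2 fold-change. The antisense gene Grin1os, which overlaps it on the opposite strand, had at most 4 counts in any library.

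**Figure D1:**
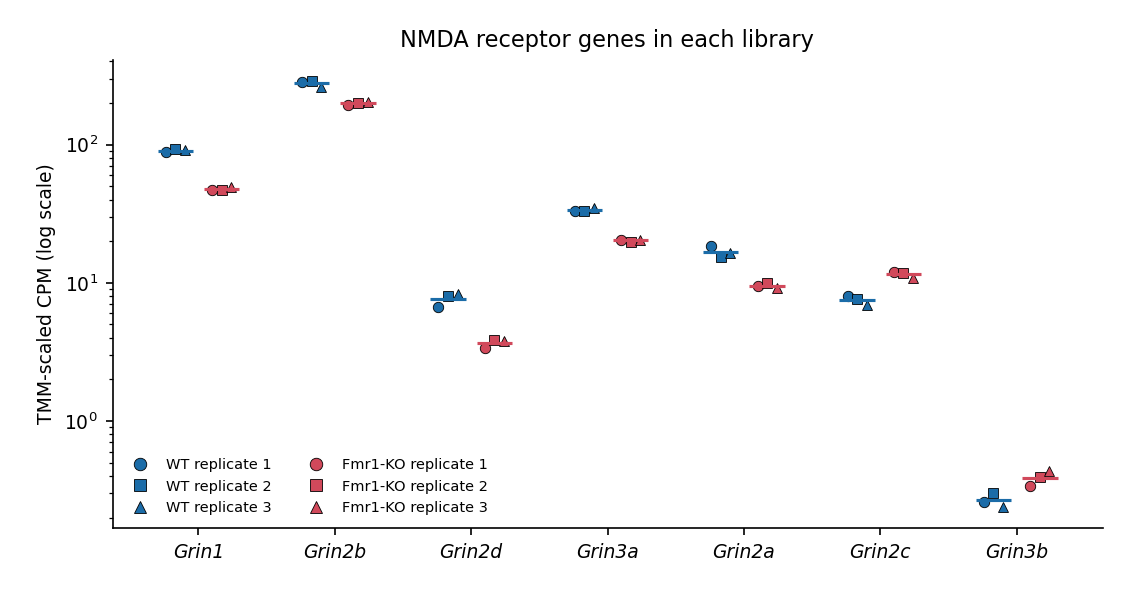
TMM-scaled CPM (log axis) of each NMDA receptor gene in the 3 WT (blue) and 3 Fmr1-KO (red) libraries, with marker shapes for replicates and bars for group means. Grin1, Grin2b, Grin2d, Grin3a and Grin2a sit lower in all Fmr1-KO libraries, Grin2c sits higher, and Grin3b stays under 0.45 CPM throughout.

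Grin2b, on chromosome 6 from 135713233 to 136173511, encodes the main GluN2 subunit of the newborn cortex and had the most counts of the family. WT replicates held 9912, 9495 and 8666 counts, and Fmr1-KO replicates held 6316, 6144 and 7036. The genotypes did not overlap, at 277.4 ± 15.3 CPM in WT and 199.1 ± 4.24 CPM in Fmr1-KO (SD, n = 3 libraries each). Grin2b had the smallest decrease among the 5 genes that fell, with a log2 fold-change of -0.48 (SE 0.04, adjusted P 7.55e-10 by edgeR).

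Grin2d, the other juvenile GluN2 gene, on chromosome 7 from 45831883 to 45878378, is known from embryonic brain and later from interneurons. Its counts were 231, 266 and 275 in WT and 109, 118 and 131 in Fmr1-KO, so that its highest Fmr1-KO library held fewer counts than its lowest WT library. It had the largest decrease of the family, a log2 fold-change of -1.06 (SE 0.11, adjusted P 9.00e-08 by edgeR), and stood at 47.8% of the WT level.

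Grin3a, on chromosome 4 from 49661611 to 49845744, encodes the juvenile GluN3 subunit, which restrains the maturation of synapses. It had 1156, 1092 and 1164 counts in WT and 665, 607 and 711 counts in Fmr1-KO. Replicates were tight and the genotypes well apart, at 33.7 ± 1.01 CPM in WT and 20.2 ± 0.355 CPM in Fmr1-KO (SD, n = 3 libraries each). The log2 fold-change of -0.74 (SE 0.05) passed the threshold (adjusted P 2.13e-10 by edgeR).

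Grin2a, on chromosome 16 from 9567898 to 9995560, encodes the subunit that takes over from GluN2B at maturing cortical synapses. It was still at a low level, with 640, 504 and 550 counts in WT and 309, 306 and 317 counts in Fmr1-KO. Levels were 16.7 ± 1.60 CPM in WT and 9.54 ± 0.443 CPM in Fmr1-KO (SD, n = 3 libraries each), without overlap. Grin2a thus fell, by 0.81 on the log2 scale (SE 0.08, adjusted P 3.07e-08 by edgeR).

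Grin2c, on chromosome 11 from 115249169 to 115267243, was the member that rose. It had 278, 254 and 229 counts in WT and 388, 362 and 379 counts in Fmr1-KO. All Fmr1-KO libraries lay above all WT libraries, at 11.5 ± 0.572 against 7.51 ± 0.586 CPM (SD, n = 3 libraries each), or 153.7% of WT. The increase on the log2 scale was 0.62 (SE 0.08, adjusted P 2.96e-06 by edgeR). Both GluN2 genes counted as mature thus passed the test, in opposite directions.

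Grin3b, on chromosome 10 from 79970715 to 79977190, was barely detected, with 9, 10 and 8 counts in WT and 11, 12 and 15 counts in Fmr1-KO. It reached 10 counts in 3 Fmr1-KO libraries and in 1 WT library, so it entered the test mainly through Fmr1-KO. Its log2 fold-change of 0.53 had an SE of 0.34 and did not pass the threshold (adjusted P 0.227 by edgeR). DESeq2 left its adjusted P undefined, and at this depth a difference in Grin3b was not detectable.

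Levels were then compared between genes per length, as TMM-scaled CPM per kb of exon (RPKM), using the union of all exons annotated for a gene. In WT, Grin2b was highest at 11.2 ± 0.617 RPKM, followed by Grin1 at 9.34 ± 0.250, Grin3a at 2.75 ± 0.0822, Grin2c at 1.49 ± 0.116, Grin2d at 1.15 ± 0.131, Grin2a at 0.932 ± 0.0891 and Grin3b at 0.0810 ± 0.00975 (SD, n = 3 libraries). The ranges of Grin2d and Grin2a overlapped, and those of the other neighbors in this order did not. In Fmr1-KO, Grin2b (8.01 ± 0.171 RPKM) and Grin1 (4.94 ± 0.163) again came first, and Grin2c (2.29 ± 0.113) lay above Grin3a (1.65 ± 0.0289). Grin2d and Grin2a, at 0.549 ± 0.0403 and 0.532 ± 0.0247 RPKM, again overlapped (SD, n = 3 libraries).

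The order of the leading genes depended on the gene model. The exons of Grin1 cover 9700 bp in all, while its longest transcript has 4276 bp, and those of Grin2b cover 24842 bp and 24060 bp. Divided by the longest transcript instead, Grin1 came first at 21.2 ± 0.566 RPKM in WT and 11.2 ± 0.369 RPKM in Fmr1-KO, above Grin2b at 11.5 ± 0.637 and 8.27 ± 0.176 RPKM (SD, n = 3). On this scale Grin3a also stayed above Grin2c in Fmr1-KO, at 2.70 ± 0.0474 against 2.36 ± 0.117 RPKM (SD, n = 3). Levels per length cannot settle which of Grin1 and Grin2b was more abundant.

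The makeup of the GluN2 transcript pool was examined next, as the share of each Grin2 gene in the summed level per length of all 4. The pool is that of the whole culture, since bulk RNA does not separate neurons from other cells. Grin2b made up 76.1%, 76.3% and 74.8% of the pool in the WT replicates and 69.7%, 69.9% and 71.6% in the Fmr1-KO replicates, and remained the main GluN2 transcript in every library. Grin2c made up 10.5%, 10.1% and 9.75% in WT and 21.1%, 20.3% and 19.0% in Fmr1-KO. Grin2d went from a mean of 7.82% to 4.82%, and Grin2a from 6.33% to 4.67%. For each of the 4 genes, the shares in Fmr1-KO libraries did not overlap those in WT libraries. The shares add up to the whole pool, so the larger share of Grin2c by itself lowers the others. The 4 separations are therefore not separate results.

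**Figure D2:**
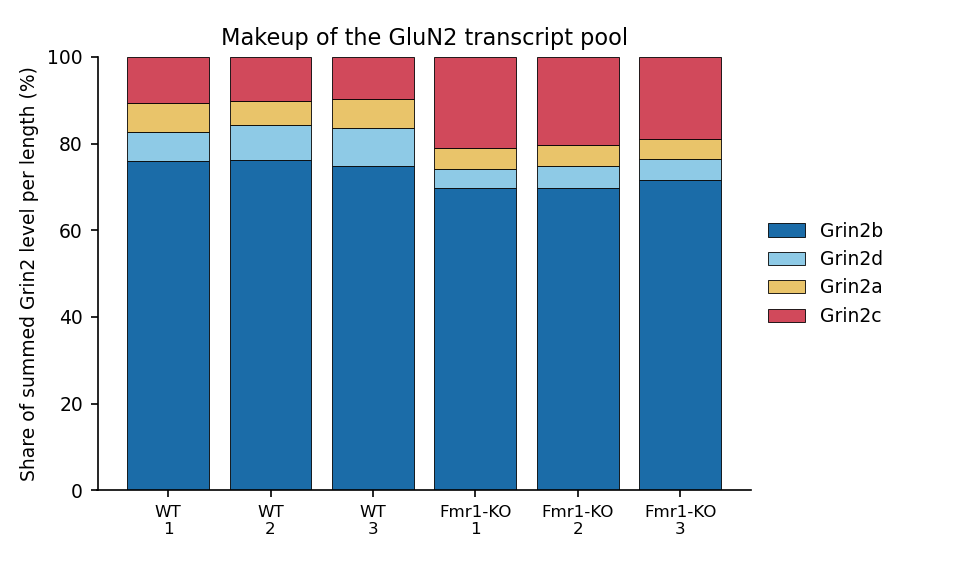
Share (%) of Grin2b, Grin2d, Grin2a and Grin2c in their summed level per exon length, as a stacked bar for each library. Grin2c takes 9.75% to 10.5% of the bar in WT and 19.0% to 21.1% in Fmr1-KO, while the other 3 segments are narrower in Fmr1-KO. The segments fill the bar together, so a wider Grin2c segment by itself narrows the others.

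Juvenile and mature subunits were compared as log2 ratios within each library, which do not depend on the scaling between libraries. The log2 ratio of Grin2b to Grin2a was 3.48, 3.76 and 3.51 in WT and 3.88, 3.86 and 4.00 in Fmr1-KO. The ratio was 1.26-fold higher in Fmr1-KO, with no overlap between genotypes (log2 difference 0.33, exact permutation test, 2-sided, P = 0.1). With 3 libraries per genotype, 0.1 is the smallest P that this test can give, and adjusted over the 11 ratios computed it was 0.11.

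The log2 ratio of both juvenile GluN2 genes (Grin2b and Grin2d) to both mature GluN2 genes (Grin2a and Grin2c) changed the other way. It was 2.25, 2.42 and 2.36 in WT and 1.52, 1.57 and 1.70 in Fmr1-KO, a log2 difference of -0.75 (exact permutation test, 2-sided, P = 0.1, the smallest possible). The direction was set by Grin2c. Without Grin2c, an alternative added after its values were seen, the ratio of Grin2b and Grin2d to Grin2a rose from 3.73 ± 0.161 to 4.01 ± 0.0776 on the log2 scale (SD, n = 3), a difference of 0.28. The genotypes did not overlap in either form of the ratio. A statement on a juvenile or mature balance in these cultures therefore depends on which mature gene is counted.

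For the GluN3 genes, the log2 ratio of Grin3a to Grin3b was 5.03, 4.80 and 5.20 in WT and 3.96, 3.71 and 3.62 in Fmr1-KO (log2 difference -1.25, exact permutation test, 2-sided, P = 0.1). The denominator rests on 8 to 15 counts per library of a gene that entered the test mainly through Fmr1-KO. The separation of this ratio therefore carries no weight beyond the fall of Grin3a. The log2 ratio of the 4 Grin2 genes to Grin1 was 0.74, 0.67 and 0.57 in WT and 1.22, 1.25 and 1.15 in Fmr1-KO, a ratio 1.46-fold higher in Fmr1-KO (log2 difference 0.55, exact permutation test, 2-sided, P = 0.1). In these libraries the Grin1 level was thus reduced more than the summed GluN2 level.

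**Figure D3:**
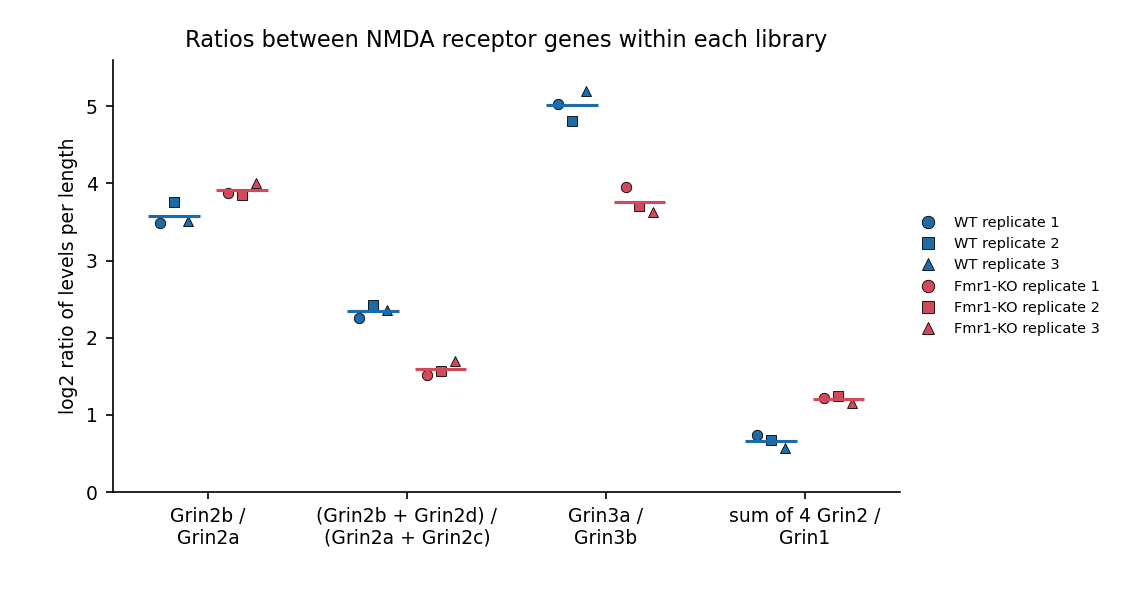
Log2 ratios of levels per exon length between NMDA receptor genes within each of the 3 WT (blue) and 3 Fmr1-KO (red) libraries, with bars for group means. Fmr1-KO libraries lie higher for Grin2b to Grin2a (log2 difference 0.33) and for the Grin2 sum to Grin1 (0.55), and lower for juvenile to mature GluN2 genes (-0.75) and for Grin3a to Grin3b (-1.25). The ratio to Grin3b rests on 8 to 15 Grin3b counts per library.

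Markers of cell types were measured beside these genes. The counts of called markers stand beside 21.9% of all tested genes called lower and 20.7% called higher. Of 15 pan-neuronal genes, 14 were called lower and 0 higher, with a median log2 fold-change of -0.63, and their summed level was 5468 to 5599 CPM in WT and 4235 to 4449 CPM in Fmr1-KO. In bulk RNA, fewer neurons and less RNA per neuron cannot be told apart. All 10 markers of proliferating cells were called higher (summed 567.5 to 605.4 CPM in WT, 967.5 to 1023 CPM in Fmr1-KO), as were 5 of 10 markers of neural progenitors (summed 3182 to 3213 and 3527 to 3598 CPM). Astrocyte markers were present in these cultures labelled as neurons, at 4293 to 4425 CPM in WT and 3689 to 4032 CPM in Fmr1-KO when summed over 7 genes, of which 4 were lower and 2 higher. Gfap made up 60.5% of that sum. Summed excitatory neuron markers overlapped between genotypes (700.3 to 706.9 and 684.6 to 706.9 CPM; 4 of 10 lower, 5 higher). Their log2 fold-changes ran from -2.45 (Slc17a7) to 0.29 (Fezf2). GABAergic interneuron markers summed to 834.5 to 867.1 and 892.1 to 985.4 CPM (5 of 10 lower, 5 higher), and Dlx1 made up 34.3% of the sum. Their log2 fold-changes ran from -2.53 (Sst) to 0.59 (Dlx2). Oligodendrocyte markers (7 of 7 lower) and microglia markers (5 of 6 lower) summed to 1882 to 2043 and 119.6 to 134.4 CPM in WT against 1074 to 1158 and 76.0 to 83.3 CPM in Fmr1-KO. Endothelial markers were low, at 11.1 to 14.8 CPM in WT and 21.2 to 23.5 CPM in Fmr1-KO when summed (1 of 4 tested genes lower, 2 higher), and Kdr made up 68.9% of the sum. Xist was higher in Fmr1-KO (305.5 CPM in WT, 915.7 CPM in Fmr1-KO) and 3 of 4 Y-linked genes, present in all libraries, were lower. The part of these differences in the changes of the Grin genes was not tested.

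Each member was also set against the pan-neuronal genes within its library. Relative to their summed counts, Grin1 was lower in Fmr1-KO by a log2 difference of -0.57, with WT libraries between -5.96 and -5.90 and Fmr1-KO libraries between -6.53 and -6.48 (exact permutation test, 2-sided, P = 0.1). Grin2b differed by -0.13 and its libraries overlapped (-4.26, -4.28 and -4.40 in WT, -4.48, -4.40 and -4.46 in Fmr1-KO; exact permutation test, 2-sided, P = 0.2). Grin2d, Grin2a and Grin3a were lower by -0.71, -0.46 and -0.39 and did not overlap, and Grin2c was higher by 0.97. The difference for Grin3b was 0.86, but it rests on 8 to 15 counts per library and Grin3b did not pass the test by edgeR.

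These differences depended on how the markers were combined, since the sum is weighted toward abundant markers and fell less (log2 difference -0.35) than the typical marker. Relative to the geometric mean of the 15 markers, added after the values were seen, Grin1 differed by -0.26, Grin2d by -0.40, Grin2a by -0.15, Grin3a by -0.08 and Grin2b by 0.18. Grin2a then overlapped between genotypes. Grin1, Grin2d and Grin3a stayed lower without overlap, and Grin2b lay higher without overlap. Grin2c rose by 1.28 on that scale. Grin1, Grin2d and Grin3a thus lay lower in every Fmr1-KO library than in every WT library in both forms. Grin2b overlapped relative to the sum and lay higher relative to the geometric mean. The share of all tested genes that separate on these scales was not computed. With 3 libraries per genotype, none of these ratios could pass a threshold of 0.05.

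**Figure D4:**
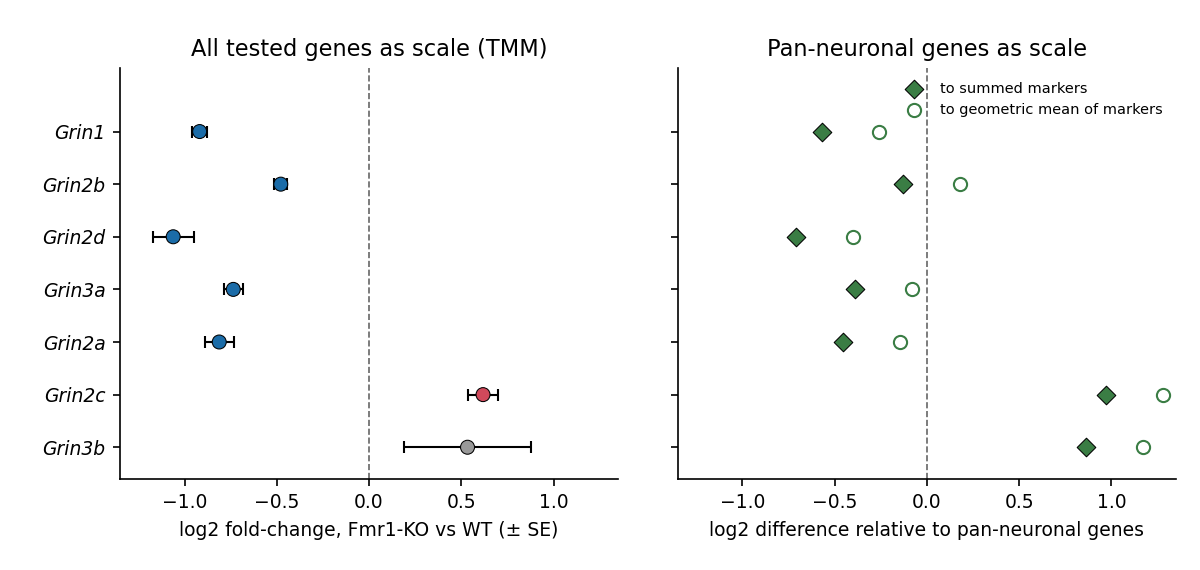
Left, log2 fold-change in Fmr1-KO relative to WT with its SE by edgeR for each NMDA receptor gene (blue called lower, red called higher, gray not called). Right, the difference in log2 ratio to 15 pan-neuronal genes, as their sum (diamonds) or geometric mean (open circles): Grin2b lies at -0.13 and 0.18, on both sides of 0, and Grin2c at 0.97 and 1.28.

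The genes whose levels across the 6 libraries most resembled Grin1 and Grin2b were identified among the 10762 other genes averaging 10 CPM or more, by the root mean square difference of log2 CPM centered on each gene's mean. For Grin1 these were Plppr4, Rgs5, Stx1a, Gap43 and Apba1, with differences of 0.0216 to 0.0303 and log2 fold-changes of -0.93, -0.91, -0.90, -0.97 and -0.96. For Grin2b they were Hecw1, Tmod2, Serpini1, Rian and Gpnmb, with differences of 0.0333 to 0.0393 and log2 fold-changes of -0.42, -0.46, -0.49, -0.45 and -0.44. Genes ranked by this measure must have fold-changes near those of Grin1 or Grin2b, so the nearness of these values is not a separate result.

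Genes that act with NMDA receptors were grouped in 6 lists of 72 genes in all, of which 70 were tested. Of these, 29 were called lower and 21 higher by edgeR, beside 21.9% and 20.7% of all tested genes, and their median log2 fold-change was -0.05. When a fold-change above 1.2 was required, 20 were lower and 1 was higher, beside 7.89% and 5.20% of all tested genes (13.1% in either direction).

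Scaffolds and trafficking proteins were lower in 10 of 16 cases and higher in 3. Dlg4 encodes PSD-95, the scaffold that holds GluN2 tails at the postsynaptic density, and fell from 252.5 ± 8.16 to 196.7 ± 4.75 CPM (SD, n = 3; log2 fold-change -0.36, adjusted P 9.58e-09 by edgeR). Its relative Dlg2 (PSD-93) had a log2 fold-change of -0.65, and Apba1, which encodes Mint1, an adaptor of the transport complex for GluN2B cargo, had -0.96. Dlg1, which encodes SAP97, and Exoc4, a subunit of the exocyst, were slightly higher (0.10 and 0.15, adjusted P 0.0233 and 0.000587 by edgeR).

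Kinases and phosphatases were lower in 10 of 15 cases and higher in 0, with a median log2 fold-change of -0.37. The largest decrease among them was that of Ptk2b, which encodes the calcium-activated tyrosine kinase PYK2 (22.1 ± 1.77 to 9.24 ± 0.832 CPM, SD, n = 3; log2 fold-change -1.26). Among downstream signaling genes, 5 of 7 were lower and 1 was higher. Rasgrf2, a calcium-dependent exchange factor for Ras, fell from 38.3 ± 1.76 to 9.36 ± 0.670 CPM (SD, n = 3; log2 fold-change -2.03), the largest change in the 6 lists, and Nos1, the neuronal nitric oxide synthase, had a log2 fold-change of -1.02.

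Among genes for the supply and removal of co-agonist, 5 of 10 tested genes were higher, 1 was lower and 4 were not called. Phgdh, the first enzyme of serine synthesis, rose from 111.0 ± 1.67 to 143.0 ± 2.15 CPM (SD, n = 3; log2 fold-change 0.37), and Slc1a5, a neutral amino acid transporter, had a log2 fold-change of 0.38. Slc1a4, another such transporter, was lower (-0.11).

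Among 15 genes for the transcription or splicing of subunit genes, 10 were higher and 1 was lower. Sp3, of the SP family that binds GC boxes, and Ptbp1, a splicing repressor of non-neuronal cells, had log2 fold-changes of 0.25 and 0.22. Any action of Sp3 on Grin2c, Grin1 or another member was not tested. Rest, which encodes the repressor of neuronal genes, had 25.1 ± 0.811 CPM in WT and 26.0 ± 0.548 CPM in Fmr1-KO (SD, n = 3), and its log2 fold-change of 0.05 did not pass the threshold (adjusted P 0.429 by edgeR). Mef2c, an activity-regulated factor of maturing neurons, was the gene called lower and fell from 446.7 ± 5.39 to 121.2 ± 4.89 CPM (SD, n = 3; log2 fold-change -1.88). Of the 7 surface partners, 2 were lower and 2 higher. Reln, the secreted protein reelin, fell from 171.4 ± 12.8 to 52.8 ± 9.56 CPM (SD, n = 3; log2 fold-change -1.70) and its receptor gene Vldlr had a log2 fold-change of -0.28, while the other receptor gene Lrp8 (0.10) and the ephrin gene Efnb2 (0.14) were slightly higher. Each gene named in these lists apart from Rest passed the threshold by edgeR with no overlap between genotypes.

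**Figure D5:**
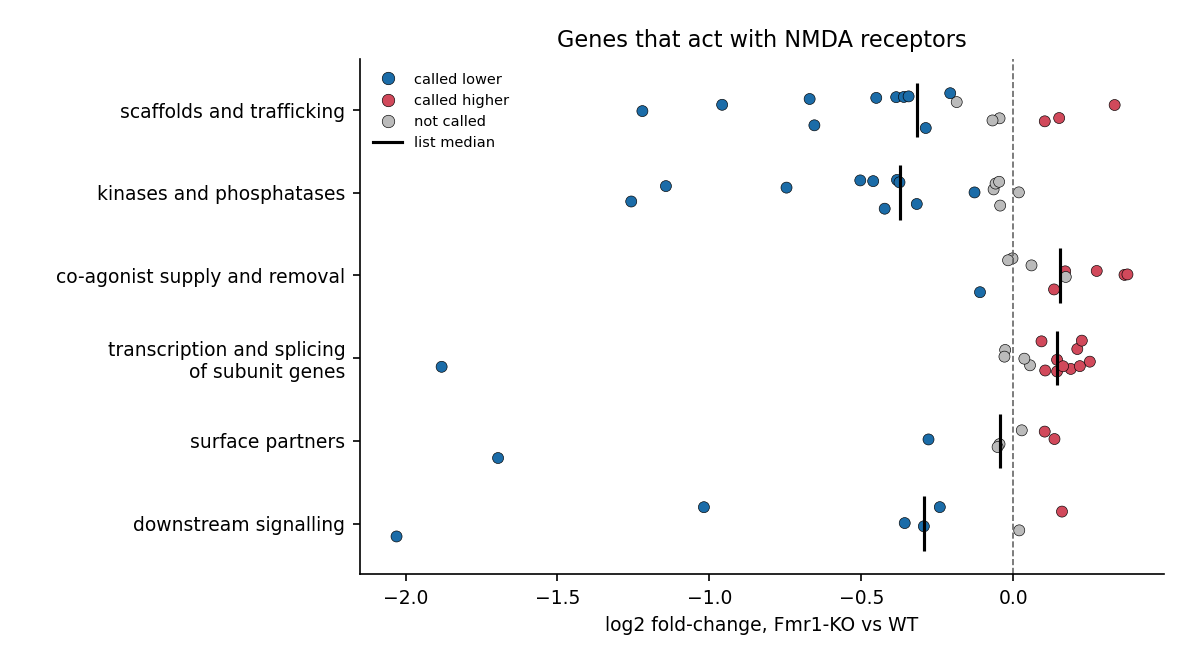
Log2 fold-change in Fmr1-KO relative to WT of the 70 tested genes in 6 lists of NMDA receptor partners, 1 point per gene (blue called lower, red called higher, gray not called) with the list median as a bar. The medians of kinases and phosphatases (-0.37) and of scaffolds (-0.32) lie to the left of 0, and the median of the transcription and splicing list (0.14) lies to the right, with Mef2c far to the left at -1.88.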

How the data were processed

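The authors trimmed single-end reads with FastP, aligned them with STAR to GRCm38.p6 and counted reads over exons with featureCounts set to reverse strand, and the deposited values are raw counts summed by gene name for each library. The submitters' processing notes give STAR 2.7.6a and Subread 2.0.1, and the study's methods give another Subread version and 2 possible Gencode releases.

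Counts were tested with edgeR 4.0.16 in R 4.3.3 (filterByExpr, TMM, glmQLFit and glmQLFTest, 2-sided, genotype as the only term), with Benjamini-Hochberg adjustment over all 16976 genes tested. SE is the log2 fold-change divided by the square root of F. The common biological coefficient of variation was 3.22%. Ratios used counts plus 0.5 and exact permutation tests over libraries (scipy 1.17.1). Lengths were taken from the exons of GENCODE M21 (GRCm38), which predates the authors' annotation. DESeq2 1.42.0 was an alternative, and the test was checked on simulated data.

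The members, the partner lists and the marker lists were chosen with earlier results of these data known. Genes named from the partner lists were Dlg4, Rest and, in each list, the 2 largest changes each way among called genes that averaged 10 CPM or more and whose genotypes did not overlap. A gene that this rule names is not reported here. The 5 genes most like Grin1 and Grin2b were named as well. Chi-square per degree of freedom between replicates was 2.92 in WT and 3.17 in Fmr1-KO, above counting noise, and no libraries were merged.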

Additional observations from a re-analysis of the deposited data

How the results depend on the processing

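Under each of 14 alternatives (a stricter filter or none, other normalizations, DESeq2, a minimum fold-change of 1.2, a replicate block and leaving out each library), 5 NMDA receptor genes were called lower and 1 was called higher, and the direction of every tested member was kept. Log2 fold-changes ran from -0.95 to -0.89 for Grin1, -0.52 to -0.45 for Grin2b, -1.16 to -1.004 for Grin2d, -0.75 to -0.71 for Grin3a, -0.87 to -0.74 for Grin2a and 0.56 to 0.67 for Grin2c. Grin3b ran from 0.44 to 0.63 in 13 alternatives, did not pass in any that gave it an adjusted P, and was removed by the stricter filter. Partner genes called higher dropped from 21 to 1 with the minimum fold-change of 1.2, since most of these increases were smaller than 1.2-fold. Partner genes called lower ran from 20 to 29. The alternatives chosen after seeing the data reversed 2 ratios: juvenile to mature GluN2 genes was 0.28 without Grin2c, and Grin2b to pan-neuronal markers was 0.18 with the geometric mean of the markers. Of 274 recomputed values, the other 271 kept their direction and, for single genes and ratios, their side of the threshold, and counts stayed within 1.5 times. Over all tested genes, same-numbered libraries did not deviate together (correlations -0.03, 0.03 and -0.01), and 2 of 6 libraries matched their own number best. These correlations cannot exclude a preparation shared by same-numbered libraries. The replicate block gave 3694 lower and 3488 higher genes in all, against 3725 and 3506 without it, and the minimum fold-change of 1.2 gave 1340 and 883. Exact permutation tests of 3 against 3 libraries cannot go below 0.1, or 0.25 with the block, so their P values say nothing about stability. Among the members, Grin3b, with 8 to 15 counts per library, was the one most limited by depth.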
